A study of Homo sapiens with 44 samples.

Results

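Lysosomes are acidic organelles in which enzymes take apart proteins, lipids and sugar chains. Autophagy is the route by which a cell wraps its own components in a membrane, the autophagosome, and delivers them to lysosomes. A family of transcription factors that includes TFEB binds a palindromic DNA element in the promoters of many lysosomal and autophagy genes. The core of that element, CACGTG, is also the sequence that MYC proteins such as MYCN bind with their partner MAX. The 39 genes described here were taken by name from the deposited table of 23367 gene rows and fall into 6 groups by role. They comprise 17 lysosomal enzymes, 3 lumenal activators and binding proteins, 8 lysosomal membrane proteins, 2 subunits of the proton pump, 1 enzyme that prepares lysosomal enzymes for targeting, and 8 genes of autophagy or its regulation.

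The cells were IMR5/75, a MYCN-amplified human neuroblastoma line that carries a short hairpin RNA against MYCN switched on by tetracycline. All of them carried the hairpin construct and all were held at the border of G1 and S phase with thymidine for 18 h, then released by washing. RNA was read at 11 times from 0 to 22 h after release, with tetracycline (Tet plus) and without (Tet minus), in 2 biological replicates each, which gives 44 libraries and 22 per arm. No library with a control hairpin, or with tetracycline and no hairpin, was used here, so an effect of the drug itself, or of the hairpin on other transcripts, cannot be told apart from an effect of less MYCN. Because the cells move through the cycle after release, the libraries are of mixed cell populations, in which fewer cells of a type and less RNA per cell cannot be told apart.

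Libraries held 10906524 to 25313546 counts on genes. At 0 to 14 h, same-numbered libraries of both arms carry the same lane number in their titles, which gives 14 pairs. From 16 h on, titles and lane numbers of Tet plus libraries differ from those of their Tet minus partners, so there the arm and the sequencing run cannot be told apart. Those 8 Tet plus libraries also stood apart in content. The spiked-in ERCC RNAs made up 0.0543% to 0.376% of all their counts, where Tet minus at the same times had 1.13% to 3.43%, and small nucleolar RNAs made up 0.935% to 2.41% against 0.289% to 0.713%. For this reason the arms were compared first over 0 to 14 h (28 libraries), and 16 to 22 h (16 libraries) was treated separately. Markers of noradrenergic neuroblastoma cells summed to 642 to 1198 CPM (read counts scaled to a common library total) in Tet minus and 882 to 1504 in Tet plus at 0 to 14 h, although TH, the first enzyme of noradrenaline synthesis, reached at most 0.213 CPM. Of the 8 markers 7 reached 1 CPM in some library of each arm. The 8 mesenchymal markers summed to 159 to 425 CPM in Tet minus and 199.8 to 533 in Tet plus at those times, 6 of them reaching 1 CPM. Both lists thus ran higher in Tet plus, with overlap, and their part in the results was not tested. Of 8 macrophage markers, whose parent cells are rich in lysosomes, CD68 alone reached 1 CPM in any library, TYROBP was at 0 in all of them, and the list summed to 2.02 to 4.68 CPM over both arms.

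The targeted gene was lower in Tet plus, but not by much. MYCN ranged from 969.7 to 1479 CPM (median 1228) in Tet minus and from 938 to 1213 (median 1002) in Tet plus at 0 to 14 h, so the arms overlapped. The average difference was -0.27 ± 0.05 on the log2 scale (SE, 14 libraries an arm, edgeR adjusted p = 2.71e-05), and MYCN was lower in Tet plus in all 14 pairs. At 16 to 22 h it was -0.26 ± 0.06 (edgeR adjusted p = 0.000787). The libraries of an arm carry 2 replicate numbers over the times, and the fit takes all of them as independent. Here and below, the averages, their p-values and the counts of pairs therefore rest on 2 replicates. At 0 h MYCN stood at 1091 and 970 CPM in Tet minus and at 1012 and 938 in Tet plus, so the arms overlapped there. At 22 h MYCN stood at 1091 and 1244 CPM in Tet minus and at 1048 and 1242 in Tet plus, a difference that did not pass the test (-0.03, edgeR adjusted p = 0.889). MYCN protein was not analysed here.

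Of the 39 genes, 38 had enough counts to be tested among 14534 genes. GABARAPL1, a member of the family of ubiquitin-like proteins that coat autophagosomes, had 0 counts in all 44 libraries, as did 3929 rows of the count table in all. The annotation used for counting is not given in the sources used here, so whether reads could be assigned to this row is not known. If they could, 0 counts allow at most 0.119 to 0.275 CPM in a single library (3 counts, counting error only). Fold changes are log2 ratios of Tet plus to Tet minus averaged over the times named, scaled so that most genes do not differ (TMM), and a gene is called where its two-sided edgeR p adjusted over all tested genes was under 0.05. Over 0 to 14 h, 16 of the 38 tested members were higher in Tet plus and 4 were lower, or 52.6% called. Among all tested genes 41.4% were called (20.1% higher and 21.3% lower), and the list was not tested against other genes. The median difference of the members was 0.11, against 0.01 for all genes, and 28 of the 38 were positive. When the libraries were instead scaled on the ERCC RNAs, the median of all genes moved to 0.13 at 0 to 14 h and to 4.40 at 16 to 22 h. On that scale OPTN alone of the members was called at 0 to 14 h (1.55, edgeR adjusted p = 0.0116, with 0.33% of all genes called). Of the 20 members called with TMM, LAMP1 was the one whose sign changed (0.0013).

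**Figure D1:**
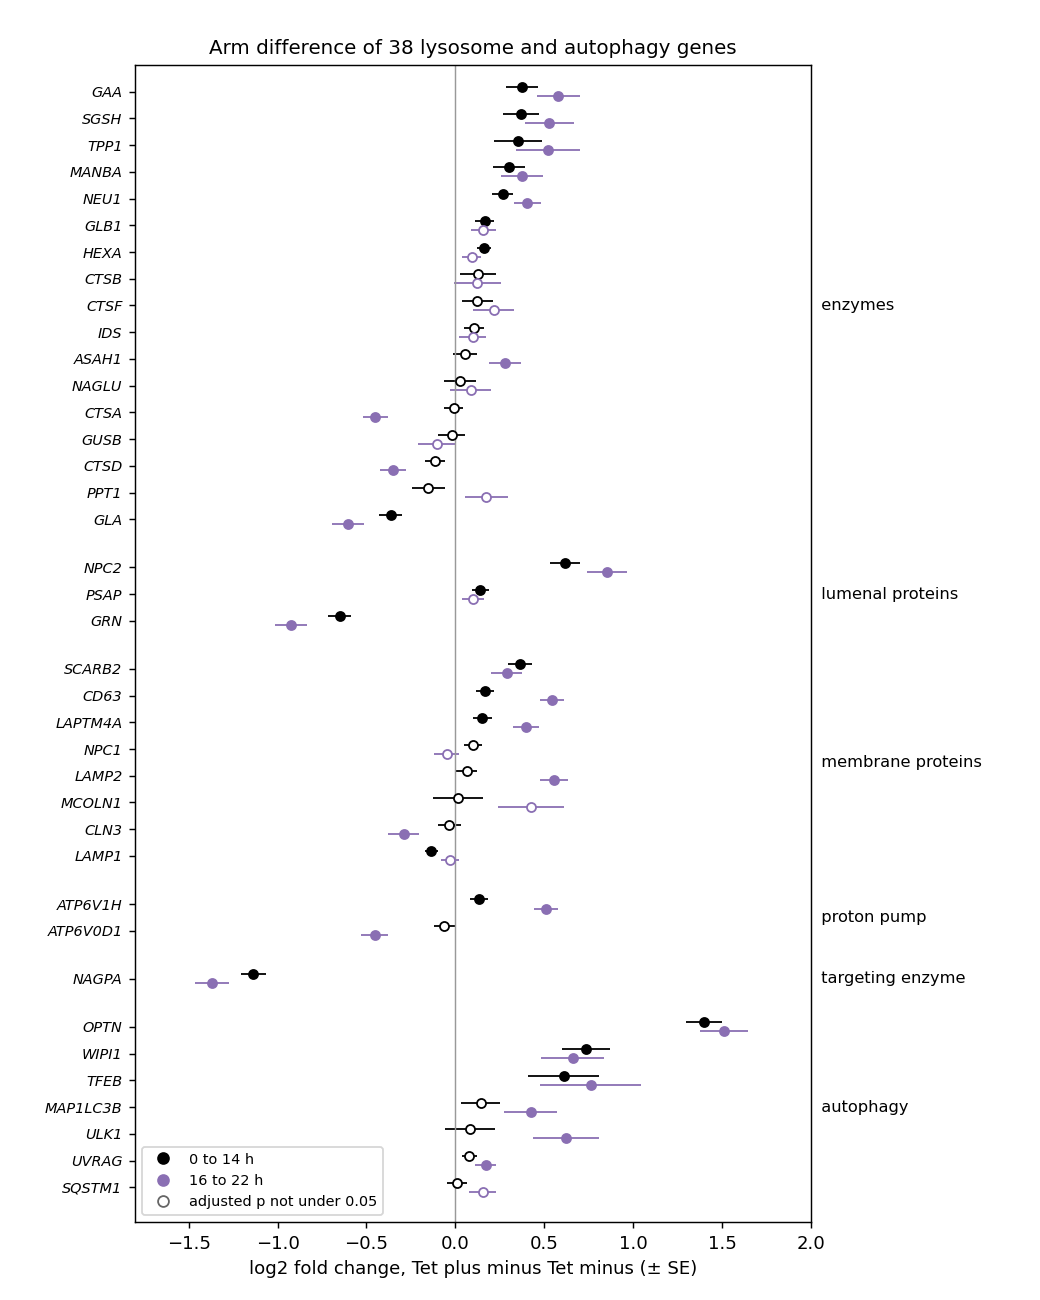
Difference between the arms (Tet plus minus Tet minus, log2 ratio, x axis) for the 38 tested members in their 6 role groups (y axis), averaged over 0 to 14 h (black) and 16 to 22 h (purple). Points are estimates, bars are 1 SE, and open points did not reach an adjusted p under 0.05. OPTN (1.40) and NAGPA (-1.14) lie farthest from 0 in opposite directions, while most enzymes and membrane proteins lie within 0.4 of 0. With ERCC scaling all 38 members lie above 0 at 16 to 22 h.

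The stretch just before the start of transcription is shown for 5 members, chosen because 4 of them hold the CACGTG core and differ in their calls, while OPTN, with the largest difference, does not hold it. Each sequence runs 5′ to 3′ on the strand of the gene over the 110 bases that end 1 base before the RefSeq start (GRCh38.p14), and capitals mark CACGTG.
NAGPA (chr16:5033936-5034045, minus strand): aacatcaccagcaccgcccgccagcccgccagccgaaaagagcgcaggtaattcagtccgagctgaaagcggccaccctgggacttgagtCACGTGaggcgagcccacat
GAA (chr17:80101471-80101580, plus strand): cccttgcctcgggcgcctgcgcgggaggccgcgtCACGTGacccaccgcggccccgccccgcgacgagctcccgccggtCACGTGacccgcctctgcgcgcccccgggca
CTSA (chr20:45891225-45891334, plus strand): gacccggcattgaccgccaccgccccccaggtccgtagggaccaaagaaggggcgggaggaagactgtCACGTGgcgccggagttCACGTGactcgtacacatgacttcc
MCOLN1 (chr19:7522514-7522623, plus strand): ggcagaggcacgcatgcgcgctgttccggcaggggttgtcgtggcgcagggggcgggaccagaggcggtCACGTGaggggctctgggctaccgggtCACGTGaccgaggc
OPTN (chr10:13099972-13100081, plus strand): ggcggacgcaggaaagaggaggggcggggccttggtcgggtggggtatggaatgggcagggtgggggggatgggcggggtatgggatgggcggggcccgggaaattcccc

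RefSeq windows from 250 bases before to 50 bases after the start were at hand for 29 of the 39 members. CACGTG, which reads the same on both strands, lay in at least 1 window of 11 of the 29 members (37.9%), against 8.77% of 27305 genes with windows. The longer palindrome TCACGTGA, which contains CACGTG, lay in 7 members (24.1%), against 1.18% of all genes: CTSA, GAA, LAMP1, CLN3, MCOLN1, ATP6V0D1 and NAGPA. CTSD, CTSF, NEU1 and CD63 held CACGTG without the longer palindrome. By arm difference at 0 to 14 h, CACGTG was found in 3 of 11 members higher in Tet plus, 2 of 4 lower, and 6 of 14 not called. Neither motif was found in the windows of OPTN, NPC2 or GRN, which says only that these letters are not in those windows. A match is a description of the sequence, and binding there was not measured.

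Optineurin showed the widest difference between the arms. OPTN encodes an autophagy receptor that ties ubiquitin-marked cargo to the autophagosome coat. At 0 to 14 h its level ran from 9.95 to 17.6 CPM (median 12.7) in Tet minus and from 28.2 to 41.3 CPM (median 34.1) in Tet plus. The lowest Tet plus library thus lay above the highest Tet minus library, and Tet plus was higher in all 14 pairs. In Tet minus, replicates 1 and 2 stood at 17.6 and 17.3 CPM at 0 h, 16.2 and 12.9 at 3 h, 11.0 and 12.9 at 6 h, 12.6 and 12.1 at 8 h, 13.9 and 9.95 at 10 h, 11.9 and 10.7 at 12 h, and 14.2 and 10.9 at 14 h. In Tet plus they stood at 41.3 and 29.6 CPM at 0 h, 38.8 and 35.4 at 3 h, 33.6 and 33.6 at 6 h, 37.1 and 34.7 at 8 h, 38.3 and 32.0 at 10 h, 33.1 and 29.7 at 12 h, and 35.0 and 28.2 at 14 h. Both Tet plus libraries were above both Tet minus libraries at each of these 7 times, as in 3.18% of all genes. The average difference was 1.40 ± 0.10 on the log2 scale (edgeR adjusted p = 2.07e-11). Taken time by time it ran from 1.02 at 0 h to 1.56 at 10 h and was called at all 7 times. The call at 0 h was lost without any 1 of its 4 libraries, that at 3 h without replicate 2 of either arm, and that at 14 h without Tet plus replicate 1 or Tet minus replicate 2.

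WIPI1 followed among the autophagy genes. Its protein binds a phosphoinositide on the membrane from which the autophagosome forms. WIPI1 ran from 11.3 to 26.7 CPM (median 17.4) in Tet minus and from 20.3 to 46.9 CPM (median 27.6) in Tet plus. The ranges overlapped, yet Tet plus was higher in all 14 pairs, and replicate 1 was above replicate 2 in every group of these times. The difference was 0.73 ± 0.13 (edgeR adjusted p = 7.86e-05) and ran from 0.58 to 0.87 at single times, none of which was called. With the replicate number as a block WIPI1 was called at all 7 times. In RefSeq names its span overlaps those of ARSG and PRKAR1A, whose differences were -0.09 and 0.16, and the strand setting of the counting is not given in the sources used here, so reads could be shared.

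TFEB, the transcription factor that switches on many of these genes, was scarce. It ran from 0.744 to 3.38 CPM (median 1.55) in Tet minus and from 1.16 to 4.41 (median 2.13) in Tet plus. The arms overlapped widely, with Tet plus higher in 13 of 14 pairs. TFEB was 0.61 ± 0.20 higher in Tet plus (edgeR adjusted p = 0.0154). At single times the difference ran from -0.01 to 1.34 and none was called. With the replicate block TFEB was called at 0 h (1.34 ± 0.30, edgeR adjusted p = 0.0053), where Tet minus stood at 1.67 and 1.36 CPM and Tet plus at 4.19 and 3.51.

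The other autophagy members did not pass the test at 0 to 14 h. ULK1, the kinase that starts autophagy, gave 0.08 (edgeR adjusted p = 0.677), with 13.4 to 54.0 CPM (median 29.8) in Tet minus and 15.3 to 55.8 (median 32.2) in Tet plus. UVRAG, a partner of the lipid kinase complex that marks autophagosome membranes, gave 0.08 (edgeR adjusted p = 0.165). MAP1LC3B, the autophagosome coat protein LC3B, gave 0.14 (edgeR adjusted p = 0.323), and SQSTM1, the receptor p62, gave 0.01 (edgeR adjusted p = 0.908). Of the 7 autophagy members tested, 3 were therefore higher and none was lower, with a median of 0.14 (20.1% of all genes higher and 21.3% lower). Of the 2 cargo receptors among them, OPTN rose and SQSTM1 did not pass the test. SQSTM1 held 210.5 to 292 CPM in Tet minus and 221 to 316 in Tet plus.

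NAGPA fell most. It encodes the uncovering enzyme of the Golgi apparatus, which completes the mannose 6-phosphate tag that directs new enzymes to lysosomes. At 0 to 14 h NAGPA ran from 16.4 to 23.2 CPM (median 20.9) in Tet minus and from 6.83 to 11.2 CPM (median 9.14) in Tet plus. No Tet plus library reached the lowest Tet minus library, and Tet plus was lower in all 14 pairs. In Tet minus, replicates 1 and 2 stood at 18.6 and 16.6 CPM at 0 h, 22.0 and 23.2 at 3 h, 22.5 and 20.9 at 6 h, 18.0 and 16.9 at 8 h, 21.5 and 20.9 at 10 h, 20.9 and 18.9 at 12 h, and 20.9 and 16.4 at 14 h. In Tet plus they stood at 10.1 and 9.70 CPM at 0 h, 11.2 and 10.9 at 3 h, 7.34 and 8.30 at 6 h, 8.88 and 10.0 at 8 h, 8.45 and 6.83 at 10 h, 7.62 and 9.50 at 12 h, and 8.51 and 9.39 at 14 h. The difference was present at 0 h, and both Tet plus libraries were below both Tet minus libraries at each time. The same held at all 7 times for 4.12% of all genes. The average was -1.14 ± 0.07 (edgeR adjusted p = 1.55e-12). Single times ran from -0.83 at 0 h to -1.47 at 6 h and 10 h, and NAGPA was called lower at all 7. The call at 0 h was lost without any 1 of its 4 libraries, that at 3 h without Tet plus replicate 2, and that at 8 h without replicate 1 of either arm or Tet minus replicate 2. NAGPA is one of the members whose promoter, printed above, holds TCACGTGA.

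**Figure D2:**
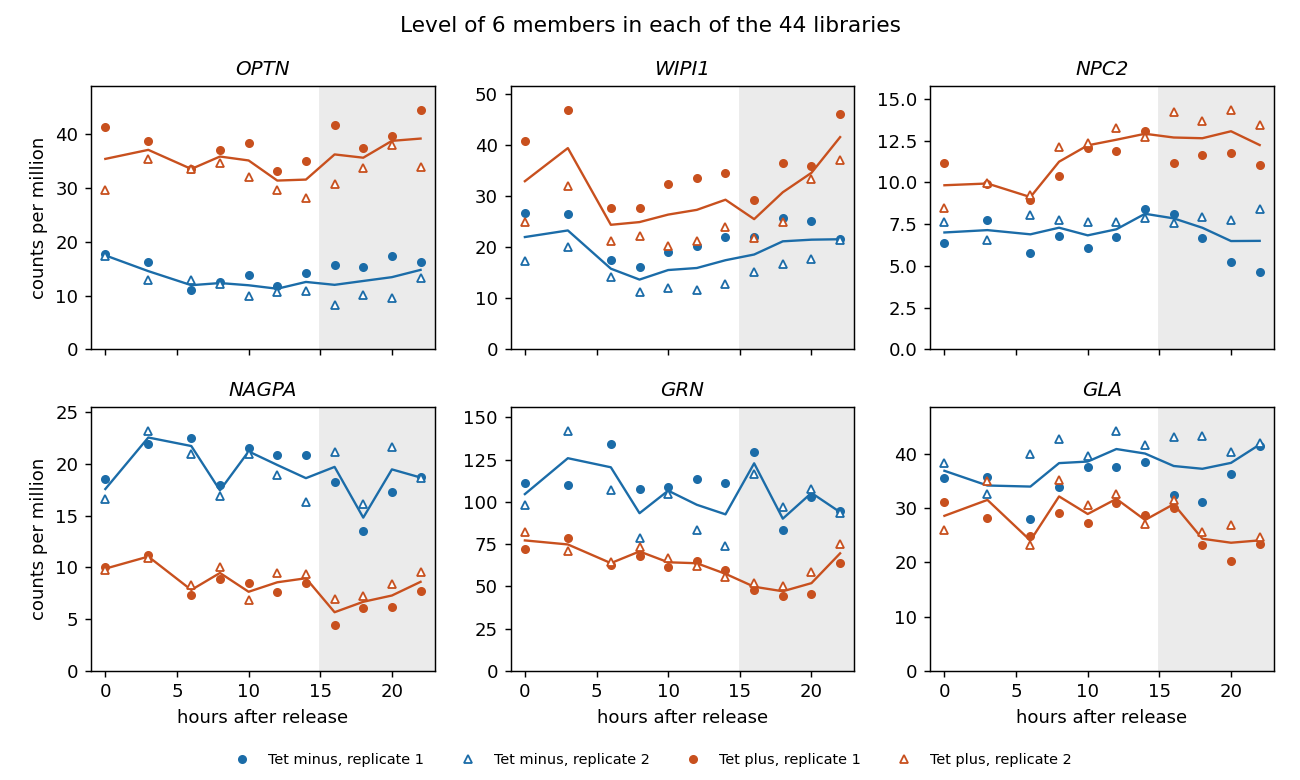
Level in each library (CPM, y axis) against hours after release (x axis) for OPTN, WIPI1, NPC2, NAGPA, GRN and GLA. Circles are replicate 1, open triangles replicate 2 and lines their means, with Tet minus in blue and Tet plus in orange, and the grey band marks 16 to 22 h. Within every single time the arms stay apart for OPTN (Tet plus at least 28.2 CPM, Tet minus at most 17.6), NAGPA, NPC2 and GRN. For WIPI1 replicate 1 lies above replicate 2. The levels are scaled by TMM, and with ERCC scaling the 16 to 22 h differences of NAGPA, GRN and GLA turn positive.

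The 3 lumenal activators and binding proteins were all called at 0 to 14 h, in both directions, where 41.4% of all genes were called. NPC2, which carries cholesterol inside the lysosome and passes it to NPC1, ran from 5.75 to 8.39 CPM (median 7.60) in Tet minus and from 8.49 to 13.2 CPM (median 11.5) in Tet plus. The arms did not overlap and all 14 pairs were higher in Tet plus. At all 7 times both Tet plus libraries were above both Tet minus libraries, as in 3.18% of all genes. NPC2 rose by 0.61 ± 0.08 (edgeR adjusted p = 1.78e-06). At single times it was called at 10 h and 12 h, and each of those calls was lost without any 1 of that time's 4 libraries.

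GRN encodes progranulin, a secreted and lysosomal glycoprotein that is cut into granulins. It ran from 74.0 to 142 CPM (median 108) in Tet minus and from 55.3 to 82.1 CPM (median 65.9) in Tet plus. The ranges overlapped only where Tet minus replicate 2 was low (78.9 CPM at 8 h and 74.0 at 14 h), and Tet plus was lower in all 14 pairs. GRN fell by 0.65 on the log2 scale (SE 0.07, edgeR adjusted p = 1.25e-08). It was called lower at 3, 6, 10, 12 and 14 h, and each of these calls was lost without at least 1 library of its time. PSAP, the precursor of the saposins that help enzymes reach their lipids, ran from 367 to 514 CPM (median 395) in Tet minus and from 394 to 524 (median 437) in Tet plus. It was 0.14 ± 0.05 higher (edgeR adjusted p = 0.0189, 11 of 14 pairs), a call that was lost when genes with low counts were kept in the test.

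Among the 17 lysosomal enzymes, 7 rose and 1 fell at 0 to 14 h, with a median of 0.12 (20.1% of all genes higher and 21.3% lower). NEU1, a sialidase, ran from 66.9 to 96.0 CPM (median 79.9) in Tet minus and from 74.5 to 118 (median 96.3) in Tet plus. It was 0.27 ± 0.06 higher (edgeR adjusted p = 0.000536) and higher in 13 of 14 pairs, with overlapping arms. GAA, the enzyme that degrades glycogen in lysosomes, ran from 68.0 to 138 CPM (median 108) in Tet minus and from 101 to 176 (median 135) in Tet plus. GAA rose by 0.37 ± 0.09 (edgeR adjusted p = 0.00169), again in 13 of 14 pairs and with overlap, and its promoter above holds CACGTG at 2 places. SGSH, a sulfatase of heparan sulfate breakdown, ran from 15.4 to 45.7 CPM (median 22.9) in Tet minus and from 15.4 to 51.0 (median 31.5) in Tet plus, and was 0.37 ± 0.10 higher (edgeR adjusted p = 0.00484). The lowest library of each arm stood at the same level.

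The other enzymes that rose were MANBA, the β-mannosidase (0.30), TPP1, a tripeptidyl peptidase (0.35), GLB1, the β-galactosidase (0.17), and HEXA, a subunit of β-hexosaminidase (0.16). The TPP1 call (edgeR adjusted p = 0.0372) was lost in 13 of the 44 fits that left out 1 library, with the largest adjusted p of 0.0976 without Tet plus 6 h replicate 2. GLA, the α-galactosidase that clears globosides, was the enzyme that fell. GLA ran from 27.99 to 44.2 CPM (median 37.97) in Tet minus and from 23.2 to 35.3 (median 28.9) in Tet plus, with overlap, and was lower in 13 of 14 pairs. The difference was -0.36 ± 0.07 (edgeR adjusted p = 7.23e-05). The remaining 9 enzymes did not pass the test: the proteases CTSB (0.13), CTSF (0.12) and CTSD (-0.11), the protective protein CTSA (-0.01), the heparan sulfate enzymes IDS (0.10) and NAGLU (0.03), ASAH1, the acid ceramidase (0.05), GUSB, the β-glucuronidase (-0.02), and PPT1, which removes palmitate from proteins (-0.15). Enzymes of a single pathway thus differed in their calls, with SGSH called and IDS and NAGLU not. Whether these differ from one another was not tested.

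The membrane proteins moved in both directions as well. SCARB2, the receptor that brings β-glucocerebrosidase to lysosomes, ran from 268 to 374 CPM (median 309) in Tet minus and from 341 to 511 (median 417) in Tet plus. It was higher in all 14 pairs although the ranges overlapped, by 0.36 ± 0.07 (edgeR adjusted p = 7.67e-05). With the replicate block SCARB2 was also called at 3, 6 and 10 h. CD63, a tetraspanin of late endosomes, ran from 165 to 212 CPM (median 182) in Tet minus and from 164 to 245 (median 213) in Tet plus, a difference of 0.16 ± 0.05 (edgeR adjusted p = 0.0109, 12 of 14 pairs). LAPTM4A, a small transmembrane protein, was 0.15 higher (edgeR adjusted p = 0.0293), but the call was lost in 7 of the 44 fits without 1 library, most of all without Tet minus 6 h replicate 2 (0.0666). That call was also lost when genes with low counts were kept in the test. LAMP1, one of the most abundant glycoproteins of the lysosomal membrane, ran from 99.7 to 132 CPM (median 115) in Tet minus and from 83.5 to 119 (median 106) in Tet plus. It fell by 0.14 on the log2 scale (SE 0.04, edgeR adjusted p = 0.00478) and was lower in 13 of 14 pairs, while with ERCC scaling it gave 0.0013.

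LAMP2, its relative (0.06), NPC1, the cholesterol exporter that takes its load from NPC2 (0.10), CLN3 (-0.03) and the calcium channel MCOLN1 (0.01) did not pass the test. MCOLN1, whose promoter holds CACGTG at 2 places, ran from 7.27 to 24.3 CPM (median 12.8) in Tet minus and from 7.43 to 22.6 (median 13.7) in Tet plus. Of the 8 membrane proteins, 3 were higher and 1 was lower, with a median of 0.08 (20.1% of all genes higher and 21.3% lower). NPC1 and NPC2, which act one after the other, therefore had different calls, NPC2 higher and NPC1 not called. The difference between them was not tested.

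The proton pump, which acidifies the lysosome, gave 1 call at 0 to 14 h, where 41.4% of all genes were called. ATP6V1H, a subunit of the outer part, ran from 53.1 to 73.2 CPM (median 59.8) in Tet minus and from 58.6 to 76.4 (median 67.6) in Tet plus, and was 0.13 ± 0.05 higher (edgeR adjusted p = 0.0367). That call was lost in 13 of the 44 fits without 1 library, with the largest adjusted p of 0.0897 without Tet plus 3 h replicate 2, and also when low genes were kept or the 28 libraries were fitted alone. ATP6V0D1, of the membrane part, ran from 59.8 to 80.0 CPM (median 71.4) in Tet minus and from 51.2 to 88.5 (median 68.6) in Tet plus, a difference of -0.06 (edgeR adjusted p = 0.412).

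The libraries of 0 to 14 h came from 3 lane sets, and the arms were compared within each. At 0 to 6 h, 4 members were higher (NPC2, SCARB2, WIPI1 and OPTN) and 3 lower (GLA, GRN and NAGPA), with 8.33% of all genes higher and 10.5% lower (18.8% called). At 8 to 12 h the same 7 genes were called in the same directions, joined by HEXA, GAA, NEU1 and CD63 among those higher (9.58% of all genes higher, 11.7% lower and 21.3% called). At 14 h, with 2 libraries an arm, OPTN was higher and GRN and NAGPA were lower (5.37% of all genes). Time by time, the 38 members gave 9 calls higher and 12 lower in total over the 7 times. Members higher numbered 2 at 10 h and 12 h (NPC2 and OPTN) and 1 at each other time (OPTN). Members lower numbered 1 at 0 h and 8 h (NAGPA) and 2 at each other time (NAGPA and GRN). Of all genes, 1.57% were called at 0 h, 2.72% at 3 h, 7.09% at 6 h, 3.43% at 8 h, 3.4% at 10 h, 4.19% at 12 h and 5.37% at 14 h. Those higher were 0.564% at 0 h, 1.02% at 3 h, 2.65% at 6 h, 1.38% at 8 h, 1.36% at 10 h, 1.62% at 12 h and 2.04% at 14 h. Those lower were 1% at 0 h, 1.7% at 3 h, 4.44% at 6 h, 2.06% at 8 h, 2.04% at 10 h, 2.57% at 12 h and 3.34% at 14 h. OPTN and NAGPA were thus called at times when few genes passed the test. These counts rest on 2 libraries an arm. Without any 1 of the 4 libraries of 0 h no member was called there, and at 3 h none was called without Tet plus replicate 2 and 1 (lower) without Tet minus replicate 2. At 8 h no member was lower unless Tet plus replicate 2 was the library left out. At 10 h each left-out library gave 1 higher and 1 lower, and at 12 h the same held but for Tet minus replicate 2, without which 2 were lower. At 6 h 2 were higher without Tet plus replicate 1, 3 lower without Tet minus replicate 1 and 1 lower without Tet plus replicate 2. At 14 h none was higher without Tet plus replicate 1 or Tet minus replicate 2, and 1 was lower unless Tet minus replicate 2 was the library left out (2). With the replicate block the members' calls at single times came to 28 higher and 15 lower, with 8.08% (0 h) to 17.4% (6 h) of all genes called. Members higher then numbered 3 at 0 h and 12 h, 4 at 6, 8 and 10 h and 5 at 3 and 14 h, and those lower 1 at 0 and 8 h, 2 at 3, 10 and 12 h, 3 at 14 h and 4 at 6 h. Over the lane sets the block gave 8 higher and 4 lower at 0 to 6 h (31.6% of all genes called) and 13 and 3 at 8 to 12 h (34.1%), with 16.2% of all genes called at 14 h.

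**Figure D3:**
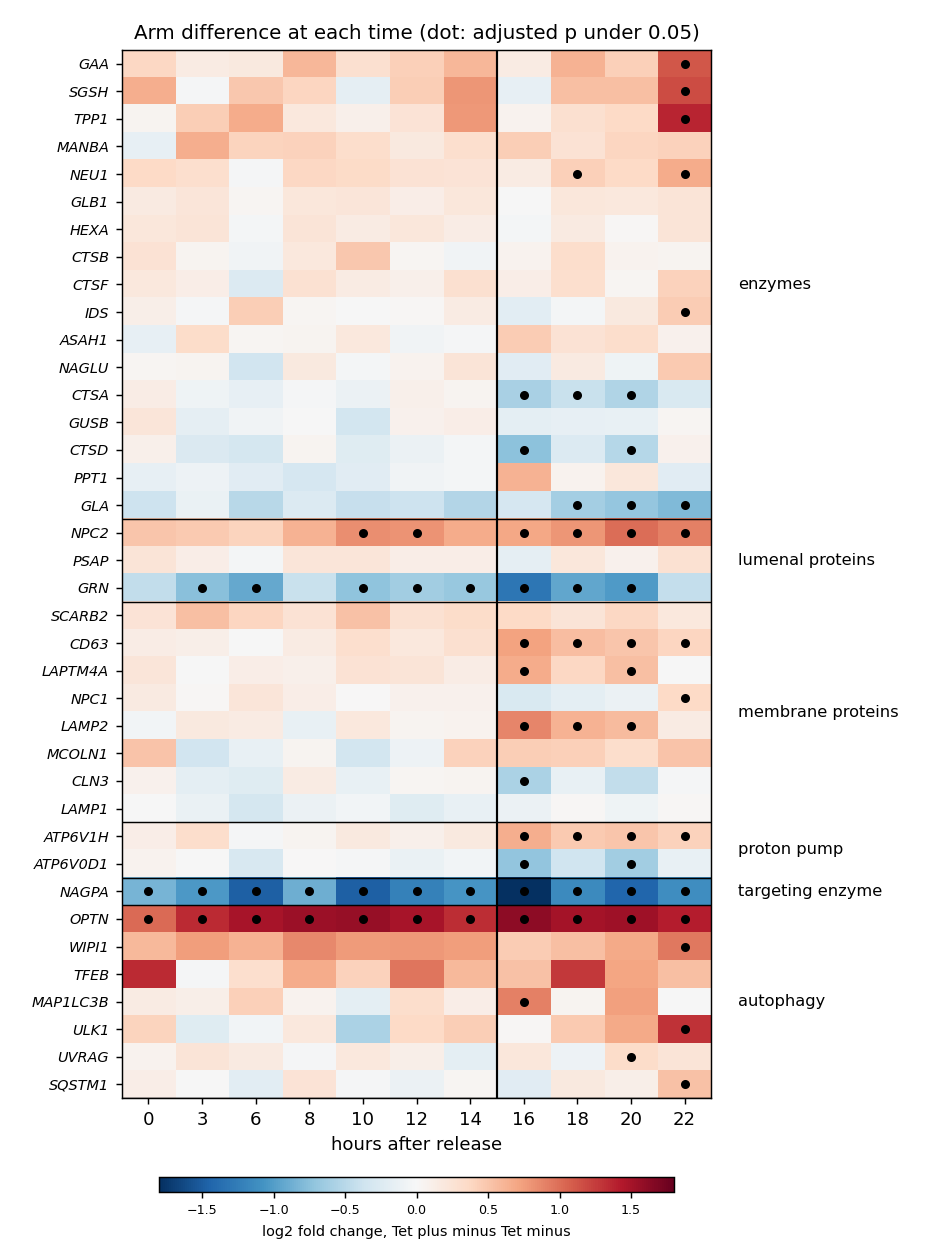
Arm difference (Tet plus minus Tet minus, log2 ratio, colour) at each of the 11 times (x axis) for the 38 tested members in their role groups (y axis). Dots mark an adjusted p under 0.05, and the vertical line separates 14 h from 16 h, where the Tet plus libraries change titles and lanes. OPTN and NAGPA carry a dot at every time, and most other dots lie at 16 to 22 h. With ERCC scaling all cells right of the line are positive.

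The arm differences showed no detectable course within 0 to 14 h. No member passed the test for a linear trend of the arm difference with time or for any interaction of arm and time, and none had an unadjusted p under 0.05 in either (edgeR, where 0.0275% and 0.0138% of all genes were called). For comparison, the levels themselves changed with time in a few members. In Tet minus 4 members did so, GUSB (edgeR adjusted p = 0.0329), SGSH (0.0428), LAMP1 (0.0476) and NPC1 (0.00483), where 14.5% of all genes were called. In Tet plus these were GUSB (edgeR adjusted p = 0.0167) and NPC1 (0.00117), where 10.4% were called. With the replicate block 11 members were called in Tet minus and 7 in Tet plus (34.3% and 25.9% of all genes). Without 1 library the SGSH course was lost in 20 of 44 fits and that of LAMP1 in 37, while that of NPC1 was kept in all of them. The GUSB course was lost in 5 of the 44 fits in Tet minus, with the largest adjusted p of 0.1401 without Tet minus 3 h replicate 2, and in Tet plus in 1, without Tet plus 10 h replicate 2 (0.0905). Because lane sets change along this course, time and lane cannot be told apart across sets. Within sets, no member passed the test from 0 to 6 h (2.35% of all genes in Tet minus, 2.5% in Tet plus) or from 8 to 12 h (0.833% and 0.22%) in either arm.

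NPC1 went down in both arms. It stood at 32.3 and 31.2 CPM in Tet minus at 0 h and at 23.5 and 17.8 at 14 h, and in Tet plus at 35.4 and 35.9 and then at 23.4 and 20.2. All 4 libraries of 14 h were lower than all 4 of 0 h. GUSB stood at 61.2 and 45.9 CPM in Tet minus at 0 h, at 67.5 and 66.7 at 3 h and at 40.3 and 40.5 at 14 h. In Tet plus GUSB went from 62.9 and 61.5 CPM at 0 h to 36.6 and 28.4 at 10 h and 40.3 and 47.1 at 14 h. The 2 genes therefore varied along the release while their arm differences over the same times did not pass the test.

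At 16 to 22 h more of all genes were called, and so were more members. Of the 38, 18 were higher and 7 lower, or 65.8%, against 53.1% of all genes (26.3% higher and 26.8% lower), and the median was 0.19 against 0.02. With ERCC scaling all 38 members were higher, as were nearly all genes (99.8% called, with a median of 4.40), so the directions here are relative to the other genes of the same library. The Tet plus libraries of these times held 10906524 to 19795156 counts, a smaller ERCC share and a larger share of small nucleolar RNA, as given above. The part of these in the results was not tested. The largest members kept their directions relative to other genes: OPTN gave 1.51 ± 0.13 (edgeR adjusted p = 3.90e-10) with 8.34 to 17.3 CPM (median 14.3) in Tet minus and 30.9 to 44.6 (median 37.7) in Tet plus. NAGPA gave -1.37 ± 0.10 (edgeR adjusted p = 4.71e-12) with 13.5 to 21.6 CPM (median 18.4) in Tet minus and 4.40 to 9.51 (median 7.10) in Tet plus. Neither pair of ranges overlapped. Among all genes, 10.1% had both Tet plus libraries above both Tet minus libraries at all 4 times, and 13.6% had them below. With ERCC scaling NAGPA gave 2.98, still below the 4.40 of all genes.

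Of the 7 autophagy members tested, 6 were higher at these times and none lower, with a median of 0.62 (26.3% of all genes higher and 26.8% lower). Beside OPTN these were TFEB (0.76 ± 0.28, edgeR adjusted p = 0.0256), WIPI1 (0.66 ± 0.18, 0.00279), ULK1 (0.62 ± 0.19, 0.00658), MAP1LC3B (0.42 ± 0.15, 0.0191) and UVRAG (0.17 ± 0.06, 0.0182). ULK1 ran from 16.0 to 36.4 CPM (median 23.3) in Tet minus and from 29.5 to 53.2 (median 35.6) in Tet plus. The calls of TFEB, MAP1LC3B and UVRAG were lost in 7, 4 and 3 of the 44 fits without 1 library, with the largest adjusted p of 0.0954 and 0.103 without Tet plus 20 h replicate 1 and 0.0669 without Tet plus 22 h replicate 1. The UVRAG call was also lost when genes with low counts were kept in the test. None of the 3 members called here but not at 0 to 14 h (ULK1, MAP1LC3B and UVRAG) passed the test of the difference between the windows, although ULK1 did with the replicate block (0.54, edgeR adjusted p = 0.0167).

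The 8 membrane proteins gave 4 higher and 1 lower at 16 to 22 h, with a median of 0.34 (26.3% of all genes higher and 26.8% lower). LAMP2 gave 0.55 (edgeR adjusted p = 1.06e-06), CD63 0.54 (1.71e-07), LAPTM4A 0.40 (5.81e-05) and SCARB2 0.29 (0.00723), while CLN3 gave -0.29 (0.00621). LAMP2 stood at 60.9 and 71.5 CPM in Tet minus and 118 and 126 in Tet plus at 16 h, and at 61.9 and 85.0 against 82.0 and 81.1 at 22 h. MCOLN1 gave 0.43 (edgeR adjusted p = 0.0577), which was called with the replicate block (0.0202).

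Of the 17 enzymes 6 were higher and 3 lower at 16 to 22 h, where 26.3% of all genes were higher and 26.8% lower. GAA (0.58), SGSH (0.53), TPP1 (0.52), NEU1 (0.40) and MANBA (0.37) were higher again, joined by ASAH1 (0.28, edgeR adjusted p = 0.0119). GLA was lower again (-0.60, edgeR adjusted p = 2.39e-06), with 31.2 to 43.3 CPM in Tet minus and 20.4 to 31.5 in Tet plus, ranges that met only at their ends. CTSA, whose promoter above holds CACGTG at 2 places, was lower (-0.45, edgeR adjusted p = 5.16e-06), and so was CTSD, an aspartic protease (-0.35, 0.000234). With ERCC scaling GLA, CTSA and CTSD turned positive (3.82, 3.98 and 4.08), below the 4.40 of all genes. GLB1 (0.16, edgeR adjusted p = 0.0636) and CTSF (0.22, 0.119) were called with the replicate block (0.0216 and 0.0171), and GLB1 also with DESeq2 (0.0463).

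Both other lumenal calls held at these times: NPC2 gave 0.85 ± 0.11 (edgeR adjusted p = 5.33e-07) and GRN -0.92 ± 0.09 (1.82e-09). NPC2 ran from 4.61 to 8.38 CPM in Tet minus and from 11.1 to 14.4 in Tet plus. GRN ran from 83.1 to 129 and from 44.2 to 75.0, and the arms of neither gene overlapped. At all 4 times, 10.1% of all genes had both Tet plus libraries above both Tet minus libraries, and 13.6% below. The 2 pump subunits moved apart. ATP6V1H was higher (0.51, edgeR adjusted p = 4.70e-07), with 53.7 to 74.3 CPM in Tet minus and 87.9 to 98.0 in Tet plus. ATP6V0D1 was lower (-0.45, edgeR adjusted p = 1.92e-05), with 57.5 to 82.8 CPM and 40.9 to 61.3. With ERCC scaling GRN gave 3.44 and ATP6V0D1 3.93.

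In both windows 13 members were called higher and 3 lower (NAGPA, GRN and GLA), where 14.3% of all genes were higher in both and 15.6% lower in both. GLB1, HEXA and PSAP were called higher at 0 to 14 h alone, and ASAH1, LAMP2, MAP1LC3B, ULK1 and UVRAG at 16 to 22 h alone. LAMP1 was lower at 0 to 14 h alone, and ATP6V0D1, CLN3, CTSA and CTSD at 16 to 22 h alone. The change of the arm difference between the windows was itself tested, and 5 of 38 members passed (20.6% of all genes did, 8.24% upward and 12.3% downward): LAMP2, CD63 and ATP6V1H upward and CTSA and ATP6V0D1 downward. With the replicate block 13 members passed (31.7% of all genes).

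At single times of 16 to 22 h the members gave 33 calls higher and 18 lower in total. Members higher numbered 7 at 16 h, 6 at 18 h, 7 at 20 h and 13 at 22 h, where 12.9%, 7.53%, 10.2% and 12.1% of all genes were higher. Members lower numbered 6, 4, 6 and 2, where 14%, 11.2%, 13.7% and 16.3% of all genes were lower (27%, 18.7%, 23.9% and 28.4% called). Those higher numbered 12, 10, 12 and 17 with the replicate block (51 calls in total), with 30% (18 h) to 41.2% (22 h) of all genes called. TPP1 (1.37), ULK1 (1.31), SGSH (1.17), GAA (1.12), WIPI1 (0.95), NEU1 (0.67) and SQSTM1 (0.53) were among those higher there. GAA stood at 85.5 and 67.1 CPM in Tet minus at 22 h and at 162 and 170.1 in Tet plus. From 16 to 22 h, within 1 lane set, SQSTM1 fell in Tet minus (-0.57, edgeR adjusted p = 0.0497, lost in 34 of 44 fits without 1 library), where 1.64% of all genes were called. In Tet plus PSAP (0.42) and NPC1 (0.60) rose and LAMP2 (-0.58) and LAPTM4A (-0.79) fell, where 7.24% were called, and these calls were lost in 11, 2, 4 and 2 of the 44 fits. For the arm difference at 22 h, without 1 of the 4 libraries of that time the count of members higher was 8, or 7 without Tet minus replicate 2. At 18 h the 6 higher and 4 lower came to 2 and 3 without Tet minus replicate 1, 2 and 2 without Tet plus replicate 2, 4 and 3 without Tet plus replicate 1 and 5 and 2 without Tet minus replicate 2. At 20 h the 7 higher and 6 lower came to 4 and 3 without Tet plus replicate 1, 4 and 5 without Tet minus replicate 1 and 3 and 4 without Tet minus replicate 2.

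The other genes of the same processes, taken from 6 lists fixed by name, gave a backdrop at 0 to 14 h (20.1% of all genes higher and 21.3% lower). Of 31 other lysosomal enzymes 11 were higher and 4 lower, with a median of 0.08. CTSO, a cysteine protease (0.59), and ARSA, the arylsulfatase of sulfatide breakdown (0.53), rose, and CTSC, a dipeptidyl peptidase, fell by 0.37. Of 24 other membrane proteins 4 were higher and 5 lower (median 0.07), with SLC17A5, the sialic acid exporter, at 0.40 and LAPTM4B, MFSD12 and ABCB9 at -0.31, -0.43 and -0.26. Of 19 other pump subunits 5 were higher and 3 lower (median 0.02), among them ATP6V1G2 (0.87), ATP6AP1 (0.35), ATP6V1A (0.21) and ATP6V0A2 (-0.18).

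Of 16 sorting genes 1 was higher and 3 were lower (median 0.06). SORT1, the sortilin receptor, was higher (0.33), while the adaptors GGA2 (-0.29) and AP1M1 (-0.34) and the mannose 6-phosphate receptor M6PR (-0.15) were lower. The other genes of this list, GNPTAB, GNPTG and IGF2R among them, did not pass the test. Of 46 other autophagy genes 15 were higher and 8 lower (median 0.07). ULK2, the sister kinase of ULK1, rose by 0.55 ± 0.04 (edgeR adjusted p = 7.82e-12), and the receptors NBR1 (0.49) and BNIP3L (0.47) and the protease ATG4A (0.40) rose too, each in all 14 pairs. Of 30 regulators of these genes 11 were higher and 2 lower (median 0.14). SESN3, which restrains the growth kinase mTORC1, rose by 0.84 ± 0.06 (edgeR adjusted p = 2.69e-11), and FNIP2 (0.61), FLCN (0.24) and TSC1 (0.34), all of which act on the same signalling route, were higher in all 14 pairs.

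**Figure D4:**
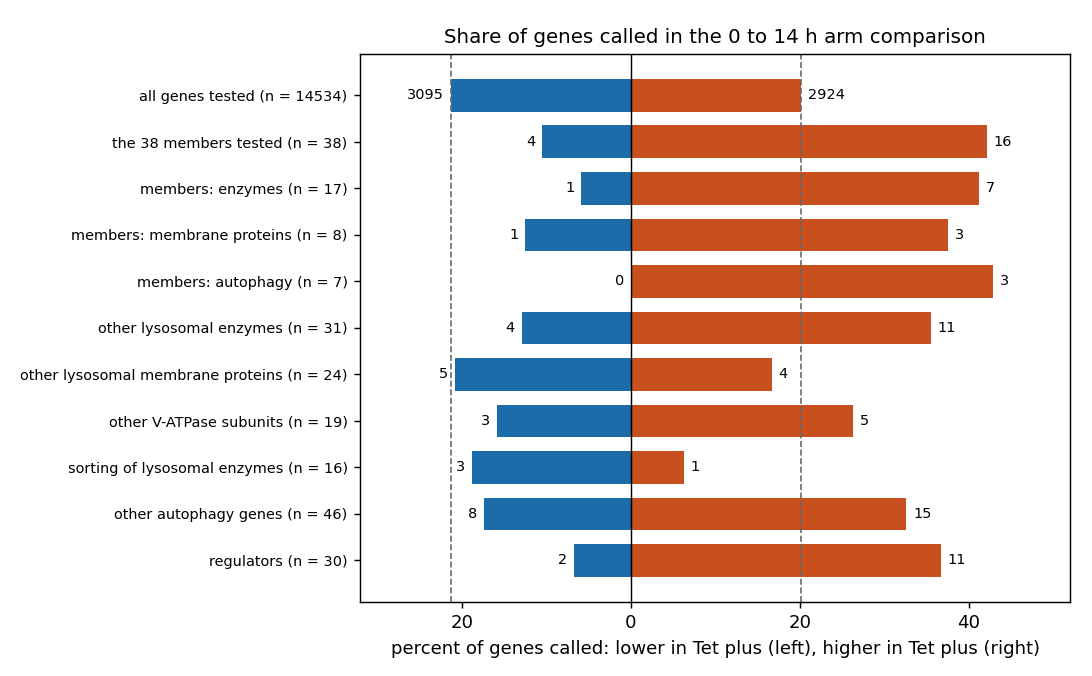
Share of tested genes called lower (left of 0) or higher (right of 0) in Tet plus at 0 to 14 h (percent, x axis) for all genes, the 38 members, 3 of their role groups and 6 other lists (y axis). Numbers at the bars are the counts of genes called, and dashed lines mark the share of all genes (21.3% lower and 20.1% higher). The 38 members have 16 higher and 4 lower. With ERCC scaling 1 member was called higher and none lower at these times.

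At 16 to 22 h the same lists gave 11 higher and 6 lower (other enzymes), 7 and 9 (membrane proteins), 5 and 3 (pump), 3 and 5 (sorting), 16 and 10 (autophagy) and 16 and 4 (regulators), against 26.3% of all genes higher and 26.8% lower. SESN3 gave 1.50, BNIP3L 0.74, GGA2 -0.89 and AP1M1 -0.85. Other enzymes had a median of -0.07 here, while the 17 enzymes among the members had one of 0.16.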

How the data were processed

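The deposited table holds counts of reads per gene, made by the authors with TopHat2 2.0.5 and HTSeq on hg19, per the submitters' processing notes. For the annotation and the strand setting, the sources used here give nothing. Per the labels' protocols, ERCC spike-ins were added and rRNA was removed before directional library preparation. The 44 libraries (22 groups of 2) were fitted together in edgeR 4.0.16 (R 4.3.3) with 1 mean per group, TMM scaling without ERCC rows, a filter on low counts by group, and the two-sided quasi-likelihood test. P-values were adjusted (Benjamini-Hochberg) over 14534 genes. Errors are standard errors of log2 fold changes. Only the edgeR test of the 0 to 14 h average was run on simulated counts. Those counts varied independently between libraries, so they do not show how the test behaves with the pairing described below. Alternatives were DESeq2 1.42.0, its size factors, no filter, the replicate block, the 28 libraries of 0 to 14 h alone, ERCC scaling, each lane set, and each library left out.

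The members, gene lists, and comparisons were chosen with earlier results of these data known. Values by library are given for up to 3 members per role with the smallest adjusted p at 0 to 14 h, 3 with the smallest interaction p, 3 with the widest Tet minus course, and TFEB, OPTN, NAGPA and MYCN; up to 4 genes per other list are named by adjusted p, of which 1 is not reported here. Same-numbered libraries of both arms deviated together (r 0.373 to 0.833 at 0 to 14 h, 0.263 to 0.666 at 16 to 22 h, over 10090 genes). The replicate numbers were therefore taken as pairs in the counts of pairs, and as 1 term in the replicate block. The main fit, which gave the p-values unless another setting is named, did not use the pairing. The replicates are called biological by the submitters, and nothing says whether all came from 1 clone of the line. The 2 libraries of each group differed beyond sampling noise, with a chi-square of 8.90 to 51.3 per gene. Promoter windows are from RefSeq (GRCh38.p14).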

Additional observations from a re-analysis of the deposited data

Results flagged for a closer look

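In 13 results the arm difference itself differed between times (edgeR, adjusted over all tested genes). The arm difference at 16 to 22 h minus that at 0 to 14 h was 0.49 for LAMP2 (adjusted p = 0.000494), 0.38 for CD63 (0.00174) and 0.37 for ATP6V1H (0.00182), and it was -0.44 for CTSA (0.000515) and -0.39 for ATP6V0D1 (0.0041). None of these 5 calls was lost when 1 library was left out. The Tet plus libraries of 16 to 22 h carry other titles and lane numbers, so the time and the sequencing run cannot be told apart.

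Within 16 to 22 h, the arm difference at 22 h minus that at 16 h was 1.32 for SGSH (adjusted p = 0.0295), 0.87 for GRN (0.0256), 0.80 for CTSD (0.0158), 0.74 for SQSTM1 (0.0263), 0.64 for IDS (0.0487) and 0.64 for NPC1 (0.0333). It was -0.73 for LAMP2 (0.0328) and -0.68 for LAPTM4A (0.0356). Among all genes 11.1% passed this test. The IDS call was lost in 29 of the 44 fits that left out 1 library, and each of the others in 4 to 6 of them.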

How the results depend on the processing

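Leaving out 1 library at a time, the members higher and lower numbered 14 to 16 and 4 to 5 at 0 to 14 h (16 and 4 with all libraries) and 17 to 20 and 7 to 7 at 16 to 22 h (18 and 7). Calls at single times ranged over 8 to 10 higher and 10 to 13 lower at 0 to 14 h, and 27 to 34 and 15 to 20 at 16 to 22 h. Trends and interactions stayed at 0 to 0, changes between the windows at 5 to 8, courses within lane sets at 0 to 1 (Tet minus) and 0 to 4 (Tet plus), and courses over 0 to 14 h at 1 to 5 and 1 to 4. With the replicate block, the pairing of same-numbered libraries, calls at single times came to 28 higher (0 to 14 h) and 51 (16 to 22 h), changes between the windows to 13, courses within lane sets to 2 (Tet minus) and 11 (Tet plus), and courses over 0 to 14 h to 11 and 7. For these courses within lane sets the block called many genes outside the list as well. In Tet minus it called 6.31% (0 to 6 h), 1.93% (8 to 12 h) and 12.3% (16 to 22 h) of all genes. In Tet plus it called 8.59%, 0.812% and 18.3%. The counts by time and lane set with the block are given in the text. Courses within lane sets in Tet minus fell to 0 with DESeq2 size factors and with no filter. With the 28 libraries alone, courses over 0 to 14 h numbered 1 in each arm, and with DESeq2 4 in Tet plus. The members higher and lower also varied with the setting. With no filter they numbered 13 and 4 at 0 to 14 h (29.1% of all genes called) and 17 and 7 at 16 to 22 h (38.3%). With the replicate block they numbered 16 and 4 (52.2%) and 21 and 7 (62.6%). With DESeq2 they numbered 16 and 4 (40.8%) and 20 and 7 (52.1%). The 28 libraries alone gave 15 and 4 (39%). Lane sets gave 4, 8 and 1 higher, and 2 lower at 14 h, from fewer libraries. ERCC scaling gave 1 higher and 0 lower at 0 to 14 h, and 38 and 0 at 16 to 22 h, where CTSA (3.98), CTSD (4.08), GLA (3.82), GUSB (4.35), GRN (3.44), LAMP1 (4.38), NPC1 (4.40), CLN3 (4.11), ATP6V0D1 (3.93), NAGPA (2.98) and MYCN (4.12) reversed, as did LAMP1 (0.0013) at 0 to 14 h. The cause was not tested. At single times, with 2 libraries a group, 2 to 4 of the 38 members were called at 0 to 14 h and 10 to 15 at 16 to 22 h.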
